A study of Homo sapiens with 6 samples.

Results

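The genes described here encode 39 plasma proteins of coagulation and complement. They are the clotting factors, the proteins that limit or dissolve a clot, and the complement cascade with its regulators. They were taken from a fixed list of symbols, which was chosen with earlier results of these data known. All 39 had at least 1 transcript cluster (the group of probes that reports a gene on the array) with values above 0, among 18372 genes measured in 19291 clusters. The cells were HepG2, a human hepatoma line with many features of hepatocytes. In 3 samples they were untreated, and in 3 they had been given the water leaf extract of B. racemosa, a tropical plant, at 50 µg/ml for 24 h. All samples were grown in the same medium with serum, and the labels describe no mock-treated group. Because HepG2 is a single transformed line in culture, there is no blood, no platelet and no vessel wall around the cells. RNA levels were read on Human Gene 1.0 ST microarrays from Affymetrix, and values are on the log2 scale, where a difference of 1 is a doubling. The labels call the replicates biological without saying whether each was a culture of its own, so the p-values reflect the spread of these 6 samples, which may be technical.

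Hepatocytes secrete most of the proteins of the clotting and complement cascades. In both cascades an inactive proenzyme is cut by the enzyme before it and then cuts the next. In coagulation the tissue factor and contact routes meet at factor X, which makes thrombin, and thrombin turns fibrinogen into fibrin. Antithrombin and other serpins trap the active enzymes, and plasmin dissolves the fibrin. In complement the classical, lectin and alternative routes meet at C3 and C5, and the terminal proteins then assemble a pore in the target membrane. The liver promoters of many of these genes are bound by HNF1, HNF4 and C/EBP factors, and several respond to IL-6 through STAT3.

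The hepatocyte identity of the cells was clear in both groups. The 7 hepatocyte markers, among them ALB and AFP, were all above the background line, with median levels of 10.3 to 10.5 on the untreated arrays and 10.2 to 10.3 on the leaf-treated arrays. All 5 endothelial markers were near background, as were 3 of 5 leukocyte, 2 of 5 fibroblast and 2 of 4 platelet markers. The background line is the 95th percentile of 357 olfactory receptor clusters, which are not expected to be expressed, and lay between 3.22 and 3.49 on the 6 arrays. It is a stand-in, because the arrays have no detection calls. Of the markers of other cell types not near background, CD68 (leukocyte) was clearly above the line, with means of 6.90 untreated and 6.69 leaf-treated. COL1A1 (fibroblast) had means of 4.19 and 4.43. MARCO, COL1A2, COL3A1, PF4 and GP1BA were close to the line, with group means of 3.19 to 3.53. Among the leaf-treated arrays, array 2 stood apart from arrays 1 and 3 in the brighter clusters. Over the 8474 clusters with a mean of at least 4, the median difference from the untreated mean was -0.0888 on leaf-treated array 1, 0.0122 on array 2 and -0.11 on array 3.

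No coagulation or complement gene differed between the groups after adjustment over all clusters. The count was 0 of 39 in limma (smallest adjusted p = 0.51), where 0.00518% of all clusters were called. The unadjusted p was under 0.05 for MBL2 and KLKB1, 2 members with higher means, and for SERPINC1, 1 member with a lower mean. Over all clusters 3.87% were higher and 5.9% lower by the same measure. After centring on the median the members were SERPINC1, C5 and C4BPB, all lower, beside 1.69% of all clusters higher and 9.67% lower on that scale. The thresholds in the design text of the series are an unadjusted p under 0.05 and a change of at least 1.5 fold. With the p from limma, 0 members were higher and 1 lower, SERPINC1, beside 0.27% and 0.57% of all clusters. With the analysis of variance of the series in place of limma, 0 members passed, beside 0.524% of all clusters. The leaf-treated arrays lay entirely above the untreated ones for 1 member, C8A, and entirely below them for 2, SERPINC1 and C4BPB, beside 6.14% and 7.41% of all clusters. After quantile normalization such members were 3 higher and 2 lower (6.76% and 9.49% of all clusters), and after centring 0 higher and 4 lower (2.73% and 13.1%), with SERPINC1 in both counts and C8A in neither. In a list of 39 these counts are near the background shares. The means were higher after treatment for 21 members and lower for 18, and the median log2 difference was 0.0140 over the members and 0.0108 over all clusters.

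**Figure D1:**
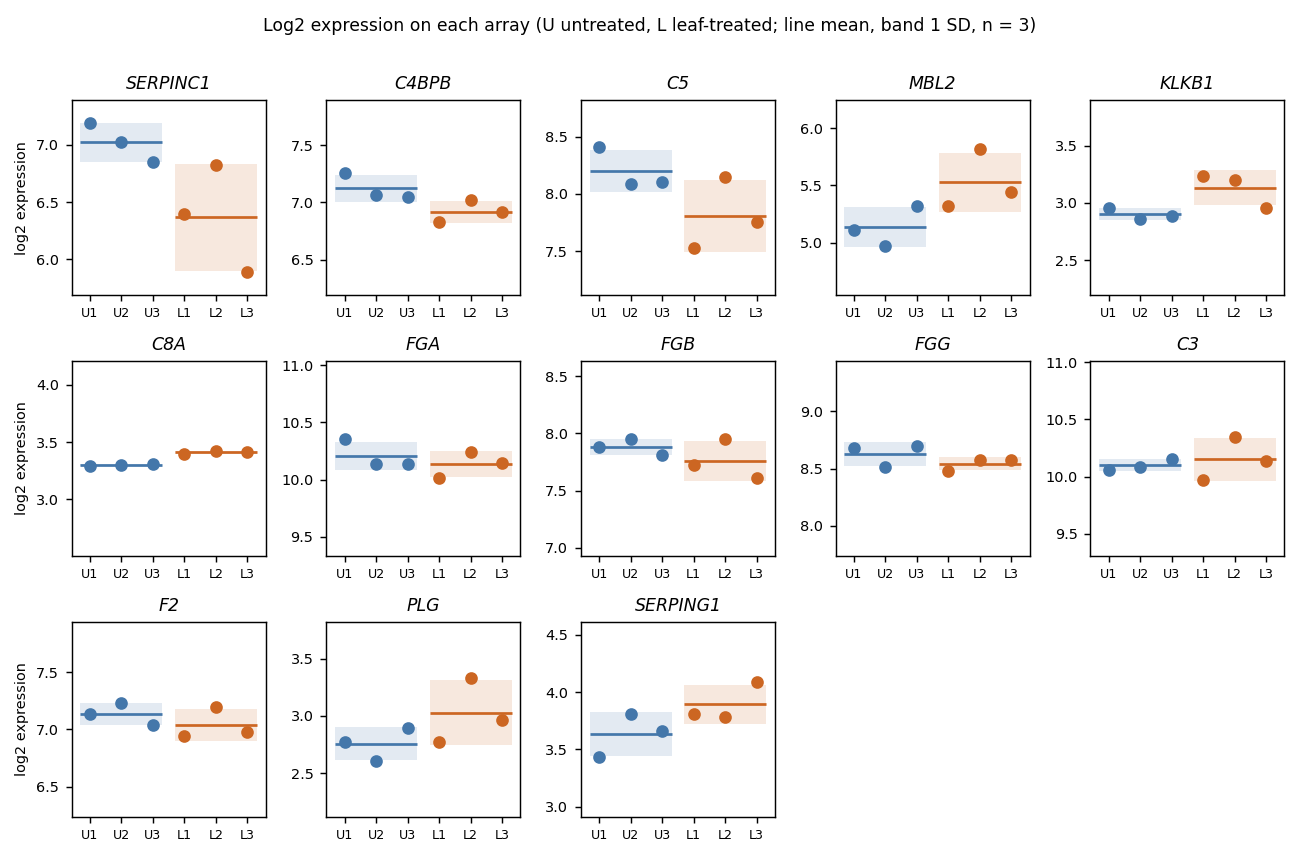
Log2 expression (y axis, every panel spanning the same range) of the members described array by array, with untreated arrays U1 to U3 in blue and leaf-treated arrays L1 to L3 in orange. Lines are group means and bands are 1 SD (n = 3). SERPINC1 lies lower on every leaf-treated array, while the fibrinogen chains, C3 and F2 overlap between the groups.

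The main clot inhibitor gave the largest difference of the list. SERPINC1 encodes antithrombin, the serpin that traps thrombin and factor Xa and that heparin accelerates. Its log2 values were 7.19, 7.02 and 6.85 on untreated arrays 1, 2 and 3, and 6.40, 6.82 and 5.89 on leaf-treated arrays 1, 2 and 3. The highest leaf-treated value lay only 0.0316 below the lowest untreated one, and the leaf-treated arrays were spread over a wider range than the untreated ones. The group means were 7.02 ± 0.17 (SD, n = 3) and 6.37 ± 0.47 (SD, n = 3). The log2 difference was -0.65 (standard error 0.23, unadjusted p = 0.028 and adjusted p = 0.51 from limma), which is 1.57 fold lower, with a 95% interval of -1.21 to -0.0969. It was -0.41 without leaf-treated array 3 and -0.88 without leaf-treated array 2, and with array 2 as the only leaf-treated array it was -0.20. The groups stayed apart after quantile normalization and after centring on the median. The other alternatives keep the values or drop an array, so groups once apart could not overlap in them. The unadjusted p from limma was 0.056 to 0.095 when untreated array 1 or 2, or leaf-treated array 1 or 3, was left out. By the analysis of variance of the series on all arrays, the unadjusted p of SERPINC1 was 0.085. After quantile normalization the log2 difference was -0.56, just short of 1.5 fold.

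The other 3 protease inhibitors had higher means after treatment, none past the adjustment. SERPING1 encodes the C1 inhibitor, which controls the first complement proteases as well as kallikrein and factor XIIa. Its values were 3.44, 3.81 and 3.66 in untreated cells and 3.81, 3.78 and 4.09 after treatment, so the groups overlapped at a low level. The log2 difference was 0.26 (standard error 0.13, adjusted p = 0.52 from limma), and 0.16 without untreated array 1 or without leaf-treated array 3. It was 0.35 without untreated array 2. SERPIND1, or heparin cofactor II, a thrombin inhibitor, had a log2 difference of 0.0172, which is below 0 after centring on the median, and SERPINF2, which encodes antiplasmin, one of 0.16. Whether antithrombin differed from these inhibitors in its response was not tested.

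**Figure D2:**
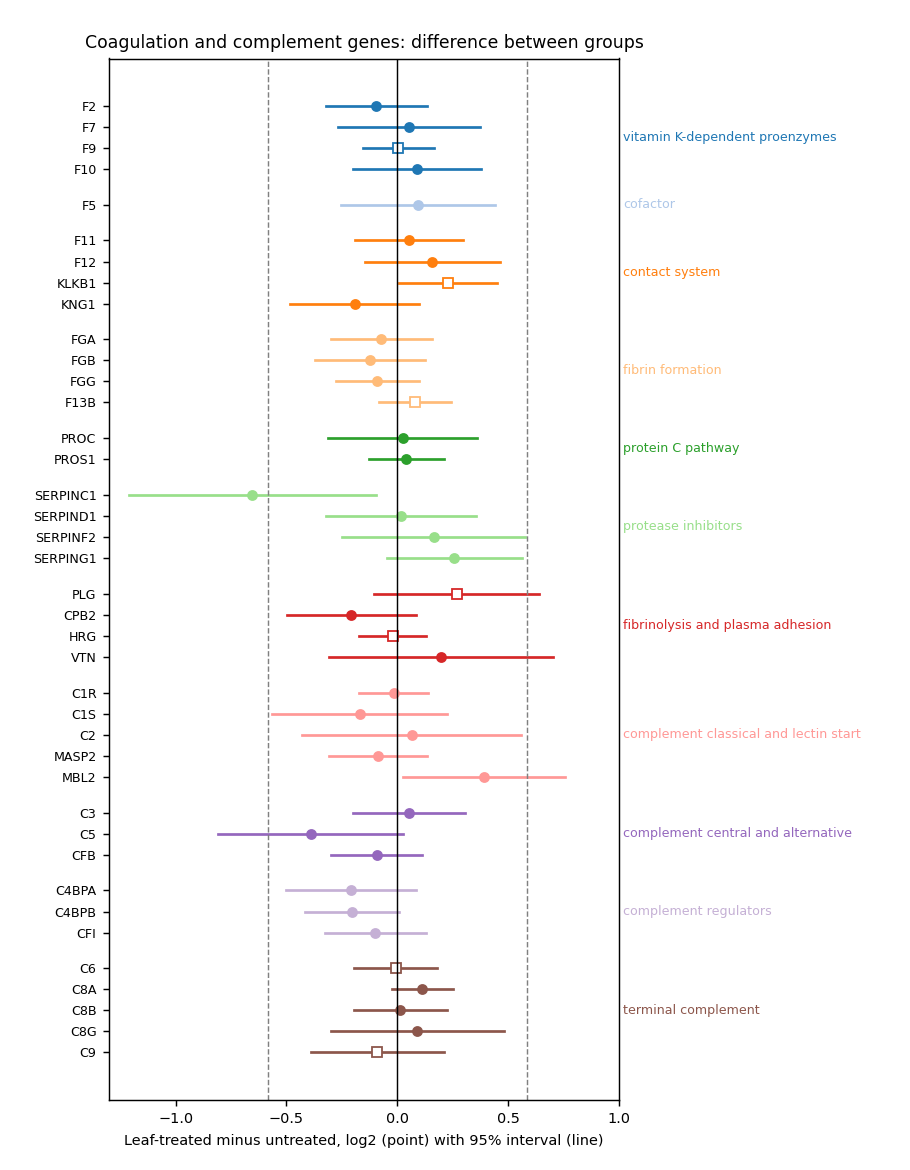
Log2 difference, leaf-treated minus untreated (x axis), for the 39 members grouped by role, with 95% intervals from limma as lines. Open squares are the 7 members near background, and dashed lines mark a change of 1.5 fold. Only the intervals of SERPINC1, MBL2 and KLKB1 leave out 0, and SERPINC1 is the only point beyond a dashed line.

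The proenzymes that need vitamin K for their carboxylation were close in level between the groups. F2, which encodes prothrombin, had log2 values of 7.13, 7.23 and 7.04 in untreated cells and 6.94, 7.20 and 6.98 after treatment. The groups overlapped. The log2 difference was -0.0944 (standard error 0.0945, adjusted p = 0.71 from limma) with a 95% interval of -0.32 to 0.13. The sign turned to 0.0234 after quantile normalization. F7 and F10, the proteases of the tissue factor route, had log2 differences of 0.0527 and 0.0905, and F9, the protein lacking in haemophilia B, was near background with a difference of 0.0053. F5, the cofactor of factor Xa, ranged from 7.76 to 7.85 in untreated cells and from 7.61 to 8.19 after treatment, so the treated arrays lay on both sides of the untreated ones. PROC and PROS1, which encode protein C and its cofactor protein S and switch clotting off, had log2 differences of 0.0247 and 0.0411. The second, dimmer PROS1 cluster had a lower mean after treatment. Its values were 5.294, 5.168 and 5.143 in untreated cells and 5.045, 5.185 and 5.091 after treatment.

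Of the contact system, which starts clotting on charged surfaces and releases bradykinin, KLKB1 was the member at an unadjusted p under 0.05. This held in 5 of 14 alternative settings, and the unadjusted p from limma was 0.11 after quantile normalization and 0.22 after centring on the median. KLKB1 encodes plasma prekallikrein. Its log2 values were 2.96, 2.86 and 2.89 in untreated cells and 3.23, 3.20 and 2.96 after treatment, with the lowest treated value at the level of the highest untreated one. All 6 values lay at or near the level of olfactory receptor clusters, so the size of its difference of 0.23 (standard error 0.0919, unadjusted p = 0.043 and adjusted p = 0.51 from limma) is not that of a clearly detected transcript. F11, its neighbour on chromosome 4, was well above background and differed by 0.0530. F12 differed by 0.16, and KNG1, which encodes the kininogen from which bradykinin is cut, by -0.19.

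Fibrinogen is made of 3 chains from 3 neighbouring genes on chromosome 4, and the differences of the chains were small and close in size. FGA had log2 values of 10.35, 10.14 and 10.14 in untreated cells and 10.02, 10.24 and 10.15 after treatment. For FGB they were 7.88, 7.95 and 7.81, then 7.72, 7.95 and 7.61. FGG gave 8.68, 8.51 and 8.70, then 8.48, 8.57 and 8.57. In each chain the groups overlapped. The log2 differences were -0.0717 for FGA, -0.12 for FGB and -0.0894 for FGG, with standard errors of 0.0951, 0.10 and 0.0781 and adjusted p of 0.66 to 0.78 from limma. Their 95% intervals reached from -0.37 to 0.16 in all, and a change of 1.5 fold in any chain lies outside its interval. The small negative sign was not stable, as quantile normalization gave -0.0092, -0.0123 and 0.0146. F13B, which carries the enzyme that cross-links fibrin, was near background with a difference of 0.0796.

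The sequences before the starts of the 3 chain genes are shown because the chains sit at 1 locus and gave like differences. RefSeq windows (GRCh38.p14) matched 33 of the 39 members, and the other 6 were SERPINC1, SERPINF2, SERPING1, C1S, C3 and C8G. Each window is the 250 bases that end just before the annotated start, read 5′ to 3′ in the direction of the gene. Capitals mark matches on either strand to GTTAAT (from the HNF1 motif), CAAAGTCCA (HNF4), TTNNGNAAT (C/EBP) or TTCNNNGAA (STAT3), and no match in the windows printed overlaps another. The windows are chr4:154590743-154590992 on the minus strand for FGA, chr4:154562730-154562979 on the plus strand for FGB and chr4:154612657-154612906 on the minus strand for FGG.
FGA: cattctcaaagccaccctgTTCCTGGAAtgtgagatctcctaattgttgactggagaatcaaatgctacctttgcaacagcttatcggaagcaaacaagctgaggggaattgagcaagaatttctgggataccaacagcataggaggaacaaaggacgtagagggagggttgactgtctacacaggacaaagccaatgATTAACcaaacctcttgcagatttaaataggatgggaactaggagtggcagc
FGB: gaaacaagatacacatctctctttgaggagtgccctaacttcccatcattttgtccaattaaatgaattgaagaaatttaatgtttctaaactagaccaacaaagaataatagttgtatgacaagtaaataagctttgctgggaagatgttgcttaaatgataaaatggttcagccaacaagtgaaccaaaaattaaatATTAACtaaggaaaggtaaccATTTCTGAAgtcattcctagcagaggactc
FGG: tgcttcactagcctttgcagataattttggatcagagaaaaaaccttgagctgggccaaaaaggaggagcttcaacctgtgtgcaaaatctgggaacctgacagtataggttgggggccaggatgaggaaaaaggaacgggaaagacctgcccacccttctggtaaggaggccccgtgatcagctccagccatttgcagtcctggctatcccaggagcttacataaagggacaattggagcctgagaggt
In FGA and FGB the HNF1 letters began 52 and 51 bases before the start. FGA also held the STAT3 letters and FGB the C/EBP letters, while FGG held no match. Over the 33 member windows the HNF1 letters were in 7 (21.2%, beside 6.23% of all 35116 windows), the C/EBP letters in 9 (27.3%, beside 9.85%), the STAT3 letters in 10 (30.3%, beside 6.57%) and the HNF4 letters in 0 (beside 0.325%). Each member has 1 window here, while all windows can hold several of a gene, and the windows were not matched for base composition. The shares were not tested against each other. A match describes the letters and does not show that a factor binds there.

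The genes for dissolving and anchoring the clot showed no common direction. PLG encodes plasminogen, the precursor of plasmin, and was near background, with values of 2.78, 2.60 and 2.90 in untreated cells and 2.78, 3.34 and 2.97 after treatment. The log2 difference of PLG was 0.27 with a standard error of 0.16 (adjusted p = 0.56 from limma), and 0.11 without leaf-treated array 2, which held the highest value. It was 0.39 without leaf-treated array 1. CPB2, a carboxypeptidase that slows fibrinolysis, differed by -0.21 and HRG, histidine-rich glycoprotein, by -0.0197 near background. VTN encodes vitronectin, an adhesion protein that also blocks the complement pore. Its untreated values of 5.85 to 5.87 were nearly equal, while the treated values were 5.72, 6.56 and 5.89, so that 1 array, leaf-treated array 2, carried the mean difference of 0.20.

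Complement begins with the recognition and protease genes. MBL2 encodes mannose-binding lectin, which binds sugars on microbes and starts the lectin route. Its log2 values were 5.11, 4.97 and 5.32 in untreated cells and 5.32, 5.82 and 5.44 after treatment. The lowest treated value equalled the highest untreated one to 2 decimals. The log2 difference was 0.39 (standard error 0.15, unadjusted p = 0.040 and adjusted p = 0.51 from limma), or 1.31 fold higher, with a 95% interval of 0.0249 to 0.76. It stayed positive in all 15 alternative settings, between 0.25 and 0.49, and was lowest without leaf-treated array 2. Several of these settings change only the error and leave the difference as it was. The unadjusted p was under 0.05 in 7 of the 15, and from limma it was 0.10 after centring on the median. MASP2, the protease that travels with this lectin, differed by -0.0863. The proteases of the classical route, C1R, C1S and C2, had log2 differences of -0.0166, -0.17 and 0.0648. C1R had the value 3.43 on 4 of the arrays, so its spread says little about its error.

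C3 and C5 are the proteins on which the routes converge. C3 had log2 values of 10.05, 10.09 and 10.16 in untreated cells and 9.97, 10.35 and 10.14 after treatment, and the means differed by 0.0521 with a standard error of 0.105 (adjusted p = 0.85 from limma). The treated arrays lay on both sides of the untreated ones, and the sign turned after centring on the median, to -0.0249. C5, whose cleavage starts the pore, had values of 8.41, 8.09 and 8.10 in untreated cells and 7.53, 8.15 and 7.75 after treatment. Leaf-treated arrays 1 and 3 were below every untreated array, and array 2 was within their range. The difference was -0.39 (standard error 0.17, unadjusted p = 0.063 and adjusted p = 0.51 from limma), and -0.25 without leaf-treated array 1. It was -0.56 without leaf-treated array 2. CFB, the protease of the alternative route, differed by -0.0929.

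The regulators C4BPA, C4BPB and CFI all had lower means after treatment. Each had a mean of at least 4, and 5472 of the 8474 clusters of that brightness also had lower means. C4BPA and C4BPB are neighbours on chromosome 1 that encode the 2 chains of the C4b-binding protein, a brake on the classical route, and CFI encodes the protease that it assists. C4BPB had log2 values of 7.26, 7.07 and 7.05 in untreated cells and 6.83, 7.02 and 6.92 after treatment, without overlap. Its difference was -0.20 (standard error 0.0888, unadjusted p = 0.058 and adjusted p = 0.51 from limma). C4BPA had values of 5.66, 5.51 and 5.39, then 5.34, 5.49 and 5.10, and differed by -0.21 with groups that overlapped. CFI differed by -0.0992, and by 0.0108 after quantile normalization, while C4BPA and C4BPB were then at -0.15 and -0.0927 and the groups of C4BPB overlapped. In the terminal complement group C8A lay at 3.29, 3.30 and 3.30 in untreated cells and 3.40, 3.42 and 3.41 after treatment. These groups did not overlap, but the difference was only 0.11 (standard error 0.0569, adjusted p = 0.53 from limma) at a level within the range of the background line. It was 0.0399 after quantile normalization and 0.0364 after centring, with groups that overlapped on both scales. C8B and C8G differed by 0.0140 and 0.0911, and C6 and C9, both near background, by -0.0069 and -0.0891.

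Windows of the same kind are shown for the pair of C4b-binding protein genes, which lie side by side, and for MBL2, the member with the highest positive difference. They are chr1:207103983-207104232 and chr1:207088610-207088859, both on the plus strand, for C4BPA and C4BPB, and chr10:52772785-52773034 on the minus strand for MBL2.
C4BPA: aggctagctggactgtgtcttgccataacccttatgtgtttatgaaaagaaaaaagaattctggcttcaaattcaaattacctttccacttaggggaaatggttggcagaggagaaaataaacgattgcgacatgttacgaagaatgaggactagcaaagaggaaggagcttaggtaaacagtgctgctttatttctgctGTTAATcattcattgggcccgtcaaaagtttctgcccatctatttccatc
C4BPB: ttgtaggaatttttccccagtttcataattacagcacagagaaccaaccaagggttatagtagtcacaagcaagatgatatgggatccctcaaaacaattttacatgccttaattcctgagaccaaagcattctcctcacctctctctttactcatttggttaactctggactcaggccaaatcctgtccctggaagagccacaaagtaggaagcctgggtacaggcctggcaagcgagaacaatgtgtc
MBL2: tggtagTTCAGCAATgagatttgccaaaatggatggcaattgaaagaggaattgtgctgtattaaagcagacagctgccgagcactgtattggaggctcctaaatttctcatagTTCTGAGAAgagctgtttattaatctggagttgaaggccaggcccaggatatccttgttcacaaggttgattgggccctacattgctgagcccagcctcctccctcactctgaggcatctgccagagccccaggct
In C4BPA the HNF1 letters began 50 bases before the start, while C4BPB held no match. MBL2 held the C/EBP and the STAT3 letters.

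**Figure D3:**
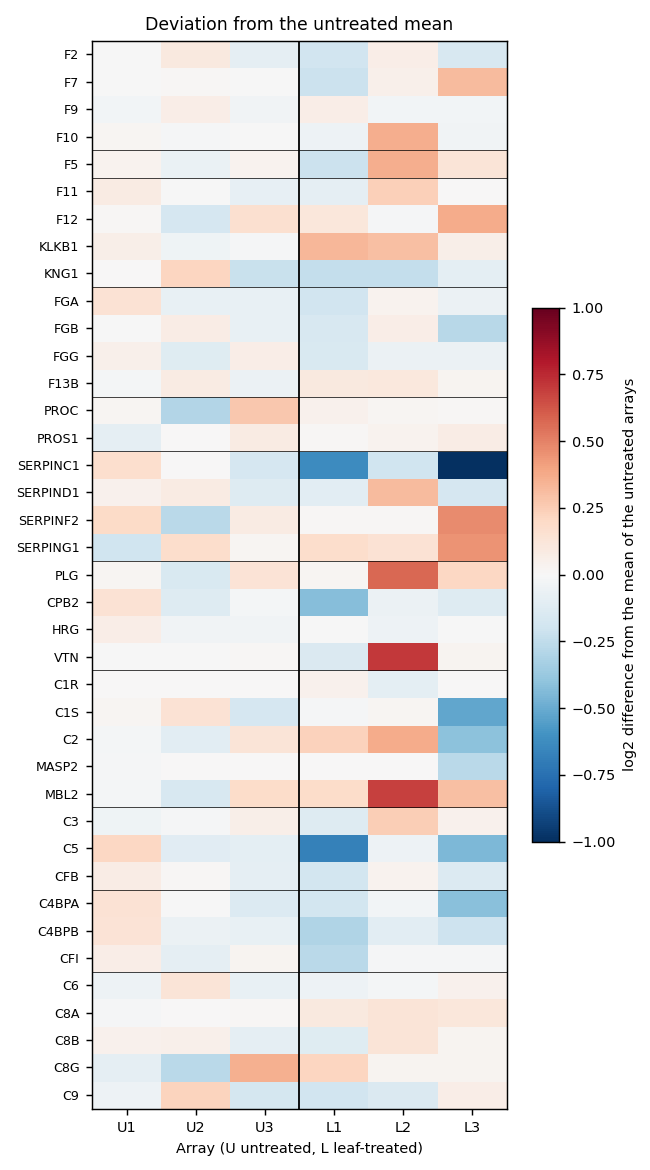
Deviation of each member (rows, in role order) from the mean of the untreated arrays, on the log2 scale, for untreated arrays U1 to U3 and leaf-treated arrays L1 to L3. Red is higher and blue lower, and the colours end at 1 in either direction, which SERPINC1 on L3 exceeds. The column of L2 is redder than those of L1 and L3, with VTN, MBL2 and PLG the highest.

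The leaf-treated arrays also differed among themselves. Of the 39 members, 15 were above the untreated mean on leaf-treated array 1, 25 on array 2 and 20 on array 3, and the medians were -0.0864, 0.0331 and 0.00. Array 2 gave the highest treated value for 18 of the 25 members with a mean of at least 4, or 72%, and for 59.4% of all clusters of that brightness. The median difference of these 25 members was -0.0717, beside -0.0650 for all clusters of that brightness. Without leaf-treated array 2, 5 members were lower at an unadjusted p under 0.05 (FGB, SERPINC1, C5, C4BPA and C4BPB) and 0 higher, beside 11.7% and 8.28% of all clusters. With array 2 as the only treated array, 9 were higher and 1 lower, beside 8.15% and 4.46% of all clusters. The part that the treatment and this array had in these values cannot be told apart within 3 arrays.

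In 34 of the 39 members the 95% interval of the difference lay within a change of 1.5 fold in either direction. It went beyond this for SERPINC1, PLG, VTN, MBL2 and C5, and beyond 2 fold only for SERPINC1. Members near background are among the 34, and their narrow intervals do not bound the change of a transcript that was not clearly detected. The sign of the difference was the same for 26 members as deposited, after quantile normalization and after centring on the median, 14 lower and 12 higher, and turned for the other 13.

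No further gene of these pathways passed the adjustment, with 0 called in each list. Of 21 further coagulation genes listed, 19 were measured. At an unadjusted p under 0.05, 1 was higher and 1 lower, beside 3.87% and 5.9% of all clusters. SERPINE2, which encodes a thrombin-inhibiting serpin of the cell surface and matrix, had log2 values of 7.69, 7.41 and 7.38 in untreated cells and 8.03, 8.24 and 7.87 after treatment. The groups did not overlap, and the difference was 0.55 (standard error 0.13, adjusted p = 0.38 from limma). APOH, a phospholipid-binding plasma protein, differed by -0.20 (adjusted p = 0.51 from limma). The 6 genes of the vitamin K cycle and factor transport gave 0 in either direction, with VKORC1L1 at -0.20 and the cargo receptor LMAN1 at -0.15. After quantile normalization VKORC1, the reductase that recycles vitamin K, was at 0.25 and its relative VKORC1L1 at -0.23 (unadjusted p = 0.011 and 0.043 from limma), and after centring VKORC1L1 was at -0.28 (unadjusted p = 0.044 from limma). Among 32 further complement genes, 26 were measured, of which 12 were near background. Among the measured ones MASP1, a lectin route protease, differed by 0.38 (adjusted p = 0.41 from limma) and CPN2, a subunit of the carboxypeptidase that inactivates anaphylatoxins, by -0.27 (adjusted p = 0.45 from limma).

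Acute phase genes, which the liver regulates during inflammation, were listed together with genes of IL-6 signalling, and they lay on both sides of 0. Of 20 listed, 19 were measured. At an unadjusted p under 0.05, 3 were higher and 3 lower, beside 3.87% and 5.9% of all clusters. The counts were 5 and 2 after quantile normalization (4.57% and 5.38% of all clusters). After centring on the median they were 2 and 4 (1.69% and 9.67%). HP encodes haptoglobin, which binds free haemoglobin. Its log2 values were 8.37, 8.31 and 8.31 in untreated cells and 7.75, 7.85 and 7.41 after treatment. The difference was -0.66 (standard error 0.12, unadjusted p = 0.0011 and adjusted p = 0.33 from limma). On the deposited scale and by limma, HP was the only gene of these further lists past the thresholds of the series. SERPINA3, or antichymotrypsin, had values of 8.39, 8.33 and 8.51, then 8.98, 9.15 and 8.67, a difference of 0.53 (standard error 0.13, adjusted p = 0.41 from limma). Both genes had groups that did not overlap. After quantile normalization HP was at -0.55, short of 1.5 fold, while SERPINE2 and SERPINA3 passed the thresholds of the series at 0.67 and 0.63. Among the 7 regulators of liver promoters measured of 11, NR0B2, a nuclear receptor without a DNA-binding domain, differed by 0.44 and FOXA1, a forkhead factor, by -0.17 (adjusted p = 0.50 and 0.51 from limma). The medians of these lists were 0.0651 for coagulation, -0.0750 for vitamin K, 0.0392 for complement, 0.0831 for acute phase and 0.0213 for regulators. After centring on the median those of coagulation, complement and regulators turned to -0.0119, -0.0378 and -0.0557, and after quantile normalization that of vitamin K turned to 0.0010.

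**Figure D4:**
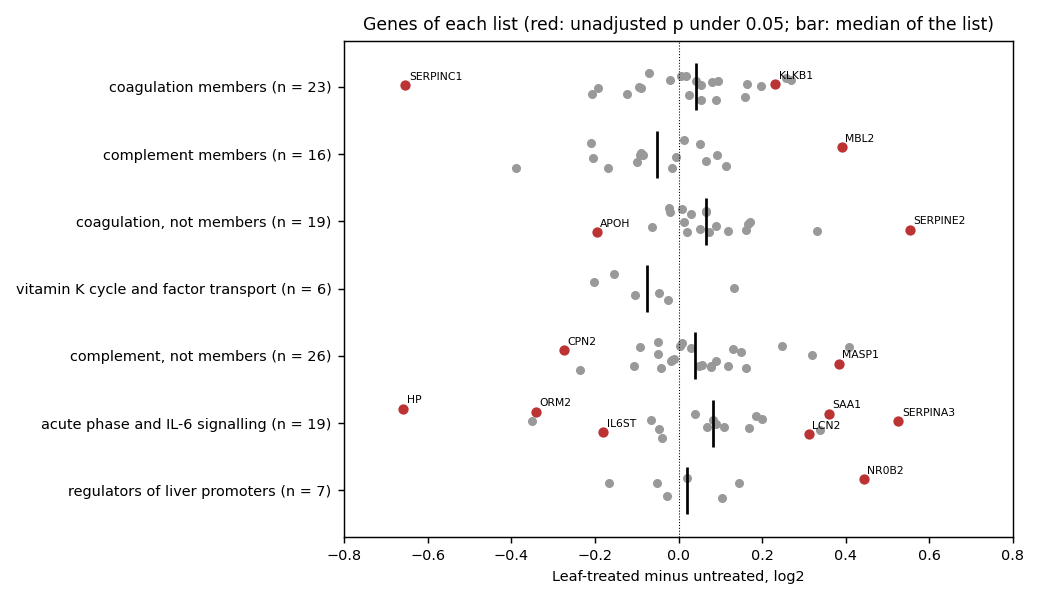
Log2 difference, leaf-treated minus untreated (x axis), of each gene in the member lists and the further lists (rows). Red points have an unadjusted p under 0.05, grey points do not, and the bar is the median of the list. SERPINC1 and HP are the lowest points and SERPINE2 and SERPINA3 the highest, and no gene shown passed the adjustment.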

How the data were processed

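Affymetrix Human Gene 1.0 ST arrays were run on 3 untreated and 3 leaf-treated samples. The authors deposited 1 table of log2 values, and the submitters' notes name GCOS, Partek and RMA, with options and versions not given in the sources used here. Of 33297 rows, 4468 were 0 on every array and were left out. The 19291 rows with exactly 1 symbol in the platform annotation were tested with limma 3.58.1 in R 4.3.3 (lmFit and eBayes, leaf-treated minus untreated, no covariate), with Benjamini-Hochberg adjustment over all of them. A gene was represented by the cluster with the highest mean, and 36 of the 39 members had 1 cluster. C2 and CFB had 3 clusters each with equal values, and PROS1 had 2. Values repeated exactly between arrays in 19 members and in 41.1% of clusters, which can make a spread too small. With 3 arrays a group, their number sets the precision. The fit was tested on simulated data.

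Members and gene lists were chosen with earlier results of these data known. Values on every array are given for members past the thresholds of the series, at an unadjusted p under 0.05 or without overlap, for the 6 with the largest differences, and for FGA, FGB, FGG, C3 and F2, and in other lists the 2 genes with the smallest p are named. Alternatives were quantile normalization, centring on the median, leaving out clusters with a mean under 4, an intensity trend with robust fit, array weights, the analysis of variance of the series, all rows, the mean of a gene's clusters, the replicate number as a block and each array left out. Leaf-treated array 2 as the only treated array was added after seeing the data.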

Additional observations from a re-analysis of the deposited data

How the results depend on the processing

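In all 15 alternatives 0 members passed the adjustment, beside 0% to 0.0472% of the clusters tested. The smallest adjusted p was 0.10, for SERPINC1 without leaf-treated array 2 (from limma), where the range over the alternatives was 0.10 to 0.82. The count past the thresholds of the series was 1 as reported. It was 0 after quantile normalization and with the analysis of variance, beside 0.762% and 0.524% of all clusters. When 1 array was left out it was 0 to 1, beside 0.575% to 2.54% of all clusters. The count at an unadjusted p under 0.05, 3 as reported, was 1 with the analysis of variance, C8A, beside 6.15% of all clusters. With 1 array left out it ranged from 0, without untreated array 1, to 5, without leaf-treated array 2. These are 0% and 12.8% of the members, beside 4.95% and 20% of all clusters in the same settings. Members whose groups did not overlap, 3 as reported, were 5 after quantile normalization (12.8%, beside 16.3% of all clusters) and 4 to 9 with 1 array left out. With fewer arrays groups separate more easily, and 19.3% to 36.7% of all clusters then did not overlap, beside 10.3% to 23.1% of the members. With leaf-treated array 2 as the only treated array the 3 counts were 2, 10 and 19 (5.13%, 25.6% and 48.7% of the members, beside 1.01%, 12.6% and 49% of all clusters), and a lone sample is then assumed to vary like the others.

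The median log2 difference was -0.0630 after centring on the median and -0.0717 without dim clusters, beside -0.0662 and -0.0650 for all clusters tested, and -0.0452 to 0.0240 with 1 array left out. Differences near 0 changed sign. F2 became 0.0234 and FGG 0.0146 after quantile normalization, C3 became -0.0249 after centring and ranged from -0.0452 to 0.1429 with 1 array left out, lowest without leaf-treated array 2, and FGA ranged from -0.1259 to 0.0003, highest without untreated array 1. With leaf-treated array 2 alone F2, FGA and FGB became 0.0654, 0.0367 and 0.0696. With the replicate block the count at an unadjusted p under 0.05 was 1, SERPINC1, beside 8.71% of all clusters. KLKB1 and MBL2 dropped out, and the block changed no other call. Deviations of samples with the same number correlated at -0.115, -0.177 and 0.121, and those of samples with different numbers at -0.188 to 0.271. With 3 samples a group these values cannot show whether the numbers pair the samples. The causes of these changes were not tested.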
